A study of Mus musculus with 2 samples.

Results

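The 10 genes described here mark hepatic stellate cells, either at rest or after activation, and encode no collagens. They are Des, Acta2, Tagln, Lum, Dcn, Reln, Pdgfrb, Hgf, Ngfr and Cygb. They were taken by name from 22180 genes measured in mouse liver, using every probe set annotated with exactly 1 of these symbols. Each of the 10 genes had 1 such probe set, and all 10 lay above the floor for dim genes on both arrays. That floor is 4.20 on the log2 scale, the median over all genes of the mean of both arrays, and 11090 genes lay above it.

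The liver RNA came from 2 groups of male mice, labelled E4bp4-LKO and WT. Both groups were 2 months old when high-fat feeding began, and it lasted 12 weeks. The RNA of several mice was pooled, and 1 array was hybridised per genotype. The sources used here do not spell out LKO, nor give the cell type of the deletion, the promoter of any Cre, the size of the pools or the time of day of sampling. The study compared gene expression between these livers. With 1 array per genotype there is no replicate error and no test, so each difference below (E4bp4-LKO minus WT, on the log2 scale) describes these 2 arrays only.

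E4BP4, encoded by Nfil3, is a transcriptional repressor of the basic leucine zipper family. Nfil3 itself was at 4.47 on the E4bp4-LKO array and 5.94 on the WT array, a difference of -1.47. Values ran from 1.18 to 12.82 with a median of 3.75 on the E4bp4-LKO array, and from 1.25 to 12.78 with a median of 3.74 on the WT array. The median difference of the genes above the floor was -0.02, and the central 95% of them lay between -0.54 and 0.49. Where a gene above the floor had 2 probe sets (555 genes), the differences of its probe sets had a standard deviation of 0.22, which measures disagreement of probes and not variation between mice.

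Hepatic stellate cells are pericyte-like cells that lie between hepatocytes and the sinusoidal endothelium. At rest they store vitamin A as retinyl esters and secrete growth factors such as HGF. After injury they become contractile, matrix-producing myofibroblasts under the influence of PDGF and TGF-beta. In whole liver, fewer stellate cells and less RNA of a gene per stellate cell cannot be told apart.

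Among the 10 stellate cell genes, 9 had a lower value in the E4bp4-LKO pool and Ngfr a higher one. Of the 9, Tagln (-0.16) and Hgf (-0.04) differed by less than the probe disagreement of 0.22. A difference below 0 was seen for 54.5% of all genes above the floor. The median difference of the 10 genes was -0.32 (SD between genes 0.28). Lum was the only gene of the 10 that was at least 1.5-fold lower, a threshold that 2.06% of all genes above the floor passed in that direction. Lum lay just inside the threshold, at -0.69, and Des just outside it, at -0.58. None of the 10 was 2-fold lower, as 0.406% of the genes above the floor were. Cygb at -0.56 and Pdgfrb at -0.52 were close behind. Lum, Des, Cygb and Pdgfrb were among the lowest 5% of genes above the floor, Acta2 was among the lowest 10%, and the other 5 were not. The 10 genes thus spread from 1.61-fold lower to 1.14-fold higher. The plot of levels on both arrays shows this gene by gene.

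**Figure D1:**
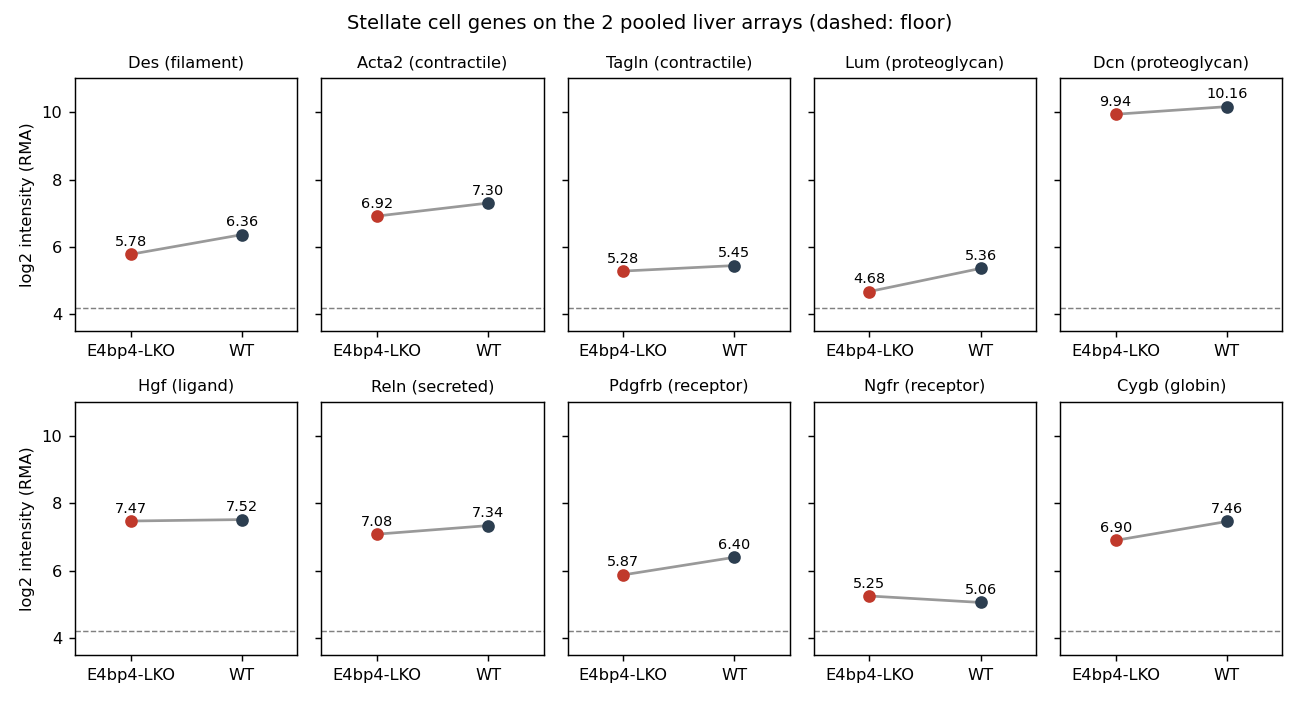
Log2 intensity (RMA) of each of the 10 stellate cell genes on the E4bp4-LKO array (left point, red) and the WT array (right point, dark), 1 array of pooled liver RNA per genotype, with the floor of 4.20 dashed. The line slopes up towards WT in 9 panels and down in that of Ngfr; levels of different genes rest on different probes and are not comparable.

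The cytoskeletal genes come first. Des encodes desmin, an intermediate filament protein of muscle that also marks stellate cells in rodents. It was at 5.78 on the E4bp4-LKO array and 6.36 on the WT array, a difference that 2.09% of the genes above the floor matched or exceeded downwards. A second probe set, annotated to both Gm15179 and Des and therefore left out, was dim, at 3.53 on the E4bp4-LKO array and 3.397 on the WT array. Averaging it in, an alternative chosen after seeing the data, brought the difference of Des to -0.22.

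Acta2 encodes alpha smooth muscle actin, the actin of activated stellate cells and of smooth muscle. Its level was 6.92 on the E4bp4-LKO array and 7.30 on the WT array, a difference of -0.39 (1.31-fold lower). Acta1, the skeletal muscle actin, has a nearly identical protein product. Probe sequences were not used here, so signal shared between Acta1 and Acta2 cannot be told apart. Tagln, which encodes the actin-binding protein SM22, differed less. It was at 5.28 on the E4bp4-LKO array and 5.45 on the WT array (-0.16), and 24.1% of the genes above the floor were as low or lower.

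Promoter windows from the RefSeq promoter table (GRCm38.p6) were searched for 5 of the 10 genes, Des, Acta2, Reln, Hgf and Ngfr, giving 6 windows. Pdgfrb, Cygb, Lum, Dcn and Tagln were not searched. The 250 bases upstream of the annotated start are shown for Acta2 and Des, the cytoskeletal genes with an entry in the table, and for Ngfr, the gene that was higher. Each is printed 5′ to 3′ on the strand of its gene. The Acta2 window is chr19:34255374-34255623 (minus strand), the Des window chr1:75360042-75360291 (plus strand) and the Ngfr window chr11:95587699-95587948 (minus strand). In capitals are the E-box CAGCTG and any CArG-like elements, both explained after the sequences.
Acta2: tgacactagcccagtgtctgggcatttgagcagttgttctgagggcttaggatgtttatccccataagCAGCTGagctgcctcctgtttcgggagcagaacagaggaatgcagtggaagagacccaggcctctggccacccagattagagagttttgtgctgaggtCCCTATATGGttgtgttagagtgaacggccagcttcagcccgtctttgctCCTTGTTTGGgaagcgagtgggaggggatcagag
Des: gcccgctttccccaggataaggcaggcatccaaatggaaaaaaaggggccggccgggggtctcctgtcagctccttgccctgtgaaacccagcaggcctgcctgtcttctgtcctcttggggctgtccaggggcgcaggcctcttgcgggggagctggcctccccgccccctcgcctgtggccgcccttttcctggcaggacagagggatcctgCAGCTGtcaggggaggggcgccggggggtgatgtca
Ngfr: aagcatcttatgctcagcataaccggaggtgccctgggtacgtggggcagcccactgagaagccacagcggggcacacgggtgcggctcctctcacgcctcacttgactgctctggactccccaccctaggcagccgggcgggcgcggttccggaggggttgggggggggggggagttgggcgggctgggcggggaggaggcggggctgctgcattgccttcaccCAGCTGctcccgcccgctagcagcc
The CArG box is the DNA element of serum response factor, which drives contractile genes. The search covered both strands. A CArG-like element allows at most a single mismatch in the A/T-rich core. The Acta2 window held 2 of them, CCCTATATGG and CCTTGTTTGG, which begin 84 and 34 bases before the annotated start. Such an element was present in 8.59% of all 32851 windows of this length, and a strict CArG box in 1.47%. Neither the Des nor the Ngfr window held a CArG-like element. The E-box CAGCTG, a word bound by several helix-loop-helix factors, occurred once each in the Acta2, Des and Ngfr windows and in 13% of all windows, and it did not overlap the CArG-like elements. The D-box words TTACGTAA and TTATGTAA, which E4BP4 is known to bind, were in none of the 6 windows searched and in 0.931% of all windows. For Pdgfrb and the other genes not searched, the presence of these words is not known. These matches describe letters in short windows and are not evidence of binding.

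Serum response factor itself and its regulators did not share one direction. Srf was at 6.31 on the E4bp4-LKO array and 6.04 on the WT array (0.27). The coactivator genes Mrtfb and Mrtfa differed by 0.28 and -0.13. In the list of 12 such regulators and targets, 11 lay above the floor, with 7 below 0, 4 above 0 and a median of -0.10. Cnn2, a calponin gene, differed by -0.47, Tpm1, a tropomyosin gene, by -0.41, and Myl9, a myosin light chain gene, by 0.33. None of the 11 passed 1.5-fold. Genes whose products join desmin in filament networks had smaller differences than the -0.58 of Des, though Cryab and Vim were level with the -0.22 that Des had with its second probe set averaged in. Vim, the vimentin gene, was at 7.25 on the E4bp4-LKO array and 7.47 on the WT array (-0.21). Cryab, a chaperone of desmin, differed by -0.22, the cross-linker gene Plec by -0.18 and the filament gene Synm by -0.11. The 4 network genes above the floor were all below 0, with a median of -0.20.

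**Figure D2:**
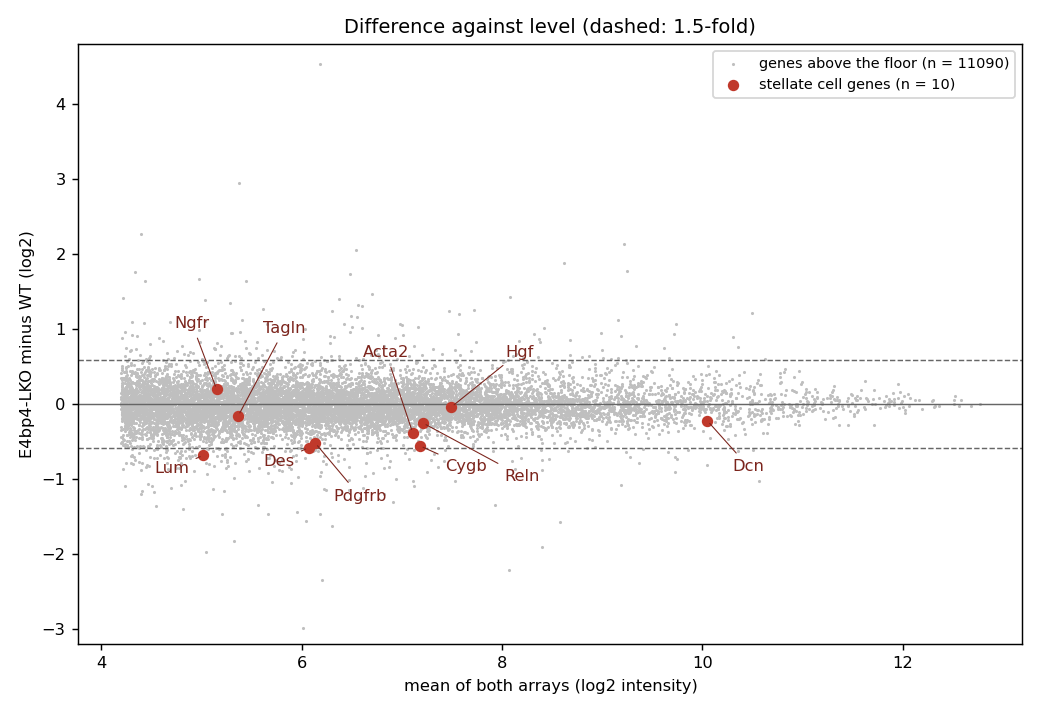
Difference between the arrays (E4bp4-LKO minus WT, log2) against the mean of both arrays (log2 intensity), for the 11090 genes above the floor (grey) and the 10 stellate cell genes (red, named), with 1.5-fold dashed. Lum lies beyond the lower line at -0.69, Des, Cygb and Pdgfrb lie near it, and Ngfr alone of the 10 lies above 0.

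Lum and Dcn encode small leucine-rich proteoglycans that bind collagen fibrils. The product of Lum is lumican and that of Dcn is decorin, which also binds TGF-beta. Lum was at 4.68 on the E4bp4-LKO array and 5.36 on the WT array, so that it was close to the floor in the E4bp4-LKO pool. Only 1.36% of the genes above the floor were as low or lower. Dcn was at 9.94 on the E4bp4-LKO array and 10.16 on the WT array, a difference of -0.23 (1.17-fold lower), and 16.2% of the genes above the floor were as low or lower. The pair are adjacent protein-coding genes on chromosome 10 in the RefSeq gene table (GRCm38.p6), and they differed by unequal amounts.

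Other proteoglycans of this family were mostly dim in these livers. Of 13, 5 lay above the floor, 4 of them below 0, with a median of -0.26, and none passed 1.5-fold. Podn, the podocan gene, was at 5.85 on the E4bp4-LKO array and 6.38 on the WT array (-0.53). Bgn, which encodes biglycan, the closest relative of decorin, differed by -0.31 and Ogn, the osteoglycin gene, by -0.26. Omd, the osteomodulin gene, went the other way at 0.34. Kera, the keratocan gene that follows Lum on the chromosome, was at 2.56 on both arrays, below the floor.

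The genes of the secreted factors, Hgf and Reln, differed by unequal amounts. Hgf encodes hepatocyte growth factor, a mitogen that hepatocytes receive from neighbouring nonparenchymal cells through the receptor Met. Its level was 7.47 on the E4bp4-LKO array and 7.52 on the WT array, a difference of -0.04, and it was the gene of the 10 nearest to 0. The other genes of this pathway that lay above the floor were also near 0. Met was at 8.19 on the E4bp4-LKO array and 8.25 on the WT array (-0.06). The activating protease genes Hpn and Hgfac differed by -0.09 and -0.01, and Mst1, which encodes the related ligand MSP, by -0.03. All 5 pathway genes above the floor lay between -0.09 and -0.004, with a median of -0.03.

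Reln encodes reelin, an extracellular glycoprotein best known from neuronal migration and made in liver by stellate cells. It was at 7.08 on the E4bp4-LKO array and 7.34 on the WT array, a difference of -0.25 (1.19-fold lower). Of its receptors, Vldlr, which also binds lipoproteins, was at 4.52 on the E4bp4-LKO array and 5.24 on the WT array (-0.72), at least 1.5-fold lower. Lrp8, the other reelin receptor, was below the floor on both arrays, and so was the adaptor gene Dab1. Downstream, Rapgef1, a guanine nucleotide exchange factor gene, differed by -0.40, the adaptor gene Crk by 0.17 and the kinase gene Fyn by -0.05. The 5 pathway genes above the floor had a median of -0.05, with 3 below 0.

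The receptors Pdgfrb and Ngfr differed in opposite directions. Pdgfrb encodes the beta receptor for platelet-derived growth factor, a mitogen of activated stellate cells. It was at 5.87 on the E4bp4-LKO array and 6.40 on the WT array, a difference of -0.52 (1.44-fold lower) that 2.71% of the genes above the floor matched or exceeded downwards. Pdgfra, the alpha receptor of mesenchymal cells, differed by a similar amount, at 5.66 on the E4bp4-LKO array and 6.14 on the WT array (-0.48). The ligand genes differed less, with Pdgfa at -0.19, Pdgfc at -0.10 and Pdgfd at -0.07. Pdgfb, whose product is the main ligand of the beta receptor, was below the floor on both arrays. All 4 pathway genes above the floor were below 0 (median -0.15), and none passed 1.5-fold.

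Ngfr encodes p75, a neurotrophin receptor found on stellate cells as well as on nerve and Schwann cells. Its level was 5.25 on the E4bp4-LKO array and 5.06 on the WT array, a difference of 0.19 (1.14-fold higher). That difference is smaller than the probe disagreement of 0.22, as are those of Tagln (-0.16) and Hgf (-0.04). Those of Dcn (-0.23) and Reln (-0.25) are little larger than it in size. The measured Schwann cell markers Sox10, S100b, Cdh19 and Mbp were below the floor on both arrays, between 2.12 and 3.74 on the E4bp4-LKO array and between 2.10 and 3.85 on the WT array. Of the neurotrophin genes and receptors, 3 of 8 measured lay above the floor. They were Sort1, the sortilin gene (-0.24), Bex3, whose product binds p75 (-0.19), and Traf6, a signalling adaptor gene (0.15).

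Cygb encodes cytoglobin, a haem protein of stellate cells and other fibroblast-like cells. It was at 6.90 on the E4bp4-LKO array and 7.46 on the WT array, a difference of -0.56 (1.47-fold lower). As low or lower were 2.30% of the genes above the floor.

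**Figure D3:**
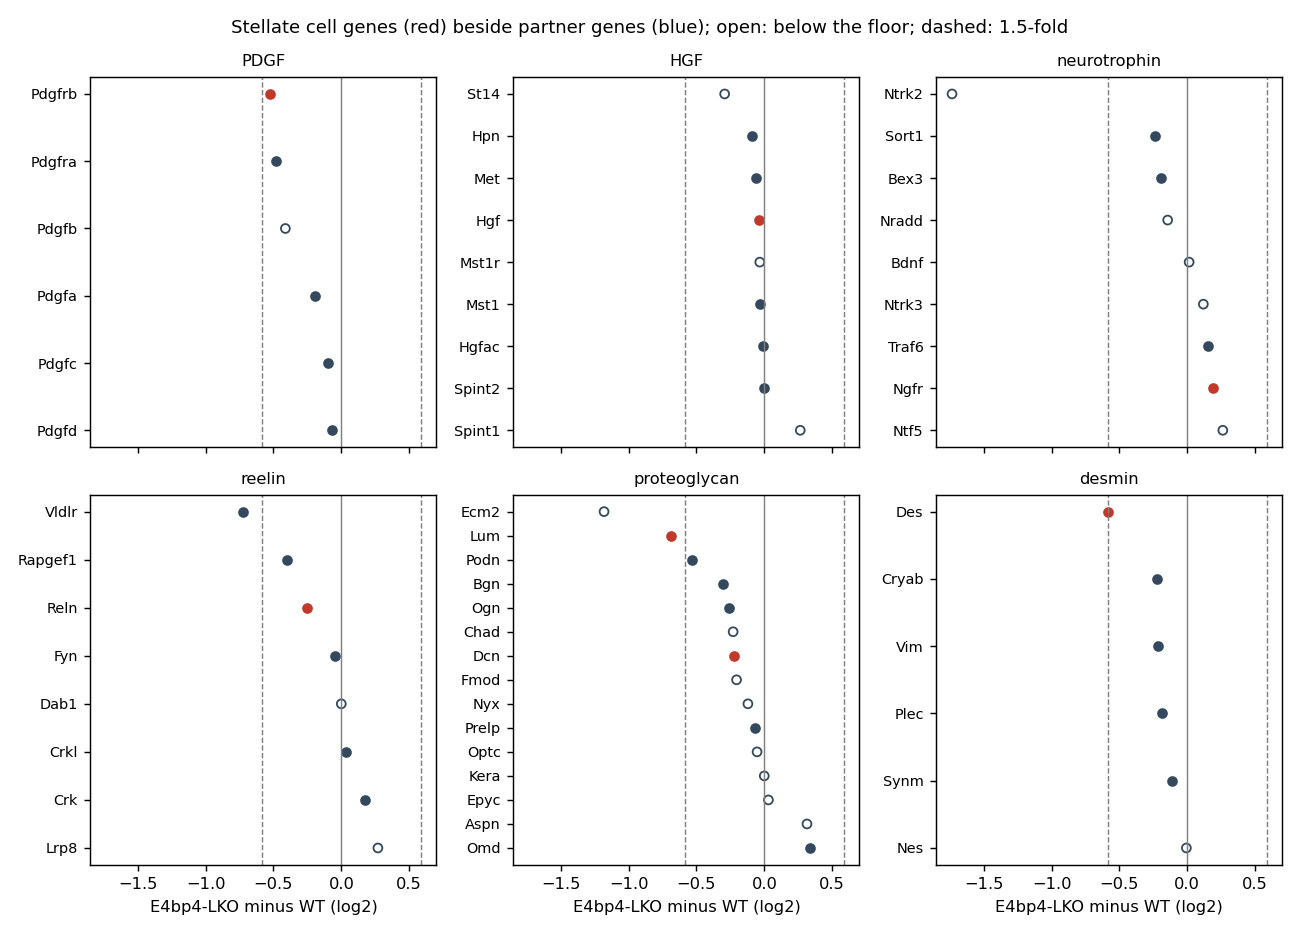
Differences (E4bp4-LKO minus WT, log2) of stellate cell genes (red) beside their partner genes (blue) in 6 panels, filled where the gene lies above the floor and open where it lies below, with 1.5-fold dashed. Pdgfrb and Pdgfra sit side by side near -0.5, Hgf and its filled partners lie near 0, and Lum lies left of Dcn.

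Stellate cell genes outside the 10 differed by smaller amounts as a list. Of 15 further identity genes, 13 were measured and 12 lay above the floor, 10 of them below 0, with a median of -0.10 and none past 1.5-fold. Adamtsl2, a microfibril-associated gene, was at 5.09 on the E4bp4-LKO array and 5.68 on the WT array (-0.58). Lrat, which encodes the enzyme that makes retinyl esters, was at 7.88 on the E4bp4-LKO array and 8.43 on the WT array (-0.56). Sod3, an extracellular superoxide dismutase gene, differed by -0.35, and Colec10, a collectin gene, by 0.40. The pericyte gene Rgs5 (-0.14), the collectin gene Colec11 (-0.09) and the matrix gene Ecm1 (-0.005) lay nearer to 0. So did the stellate cell transcription factor genes Hand2 (-0.11), Lhx2 (-0.07) and Tcf21, which was higher (0.16). The identity genes above the floor thus ranged from -0.58 to 0.40.

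Of 15 further activation genes, 12 were measured and 7 lay above the floor. They had a median of -0.18, with 6 below 0. Postn, the periostin gene of activated fibroblasts, was at 6.52 on the E4bp4-LKO array and 7.11 on the WT array (-0.59), at least 1.5-fold lower. Sparc, a collagen-binding matrix protein gene, differed by -0.22 and Thbs2, a thrombospondin gene, by -0.18. Fn1, the fibronectin gene, which hepatocytes express strongly, differed by -0.002. Timp1, an inhibitor of matrix proteases that activated stellate cells make, did not reach the floor on either array, at 3.62 on the E4bp4-LKO array and 3.41 on the WT array.

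The TGF-beta pathway, which drives activation, had 12 of 13 genes above the floor, 9 of them below 0, with a median of -0.11 and none past 1.5-fold. Tgfb1 was at 6.88 on the E4bp4-LKO array and 7.18 on the WT array (-0.30). The coreceptor gene Tgfbr3 differed by -0.39, the signal transducer gene Smad3 by -0.31 and Ltbp4, whose product binds latent TGF-beta, by -0.30.

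Des, Acta2 and Tagln are also muscle genes, and genes of skeletal muscle had lower values in the E4bp4-LKO pool. Of 20 skeletal muscle genes, 18 were below 0, and of the 16 above the floor 8 were at least 1.5-fold lower, with a median of -0.63. The summed linear intensity of the 20 genes was 691 on the E4bp4-LKO array and 1131 on the WT array. The fast myosin gene Myh2 was at 4.41 on the E4bp4-LKO array and 6.24 on the WT array (-1.83). Atp2a1, the calcium pump gene of fast fibres, differed by -1.47, the myosin genes Myh4 and Myh1 by -1.40 and -1.16, and Acta1 by -0.91. Tnnt3, a fast troponin gene (-0.86), Mb, the myoglobin gene (-0.75), and Pygm, the muscle glycogen phosphorylase gene (-0.67), completed the 8. Myh1, Myh4 and the creatine kinase gene Ckm (-0.40) were under the floor in the E4bp4-LKO pool, and all 3 were over it in the WT pool. The list was written with these differences known, since Myh2 and Atp2a1 had drawn attention in earlier results of these data. The part of skeletal muscle RNA in the values of Des and Acta2 was not tested.

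Smooth muscle genes differed less than skeletal muscle genes. Of 16, 13 were below 0, and of the 10 above the floor 8 were below 0, with a median of -0.14. The summed linear intensity of the 16 genes was 1171 on the E4bp4-LKO array and 1285 on the WT array. Among the defining markers, the smooth muscle myosin gene Myh11 was at 5.14 on the E4bp4-LKO array and 5.25 on the WT array (-0.11), and Smtn, the smoothelin gene, differed by -0.11. The calponin gene Cnn1, the enteric actin gene Actg2 and the leiomodin gene Lmod1 were below the floor on both arrays. Tpm2, a tropomyosin gene that skeletal muscle also expresses, was the member of the list at least 1.5-fold lower, at 4.66 on the E4bp4-LKO array and 5.44 on the WT array (-0.79). Itga8, an integrin gene of smooth muscle and stellate cells, differed by -0.46 and Tpm1 by -0.41, while Myl9 went the other way at 0.33. Heart and slow muscle genes were mostly dim. The heart genes Myh6, Nppa and Tnni3 and the slow myosin gene Myh7 were below the floor on both arrays, and 3 of the 12 genes on that list lay above it. These were Myl2, a ventricular and slow muscle myosin light chain gene (-0.31), Tnnc1, the slow and heart troponin C gene (-0.15), and Tnnt2, a heart troponin gene (0.09). Their median was -0.15, and the summed intensity of the 12 was 193 on the E4bp4-LKO array and 210.4 on the WT array. The slow muscle troponin genes Tnnt1 (-0.42) and Tnni1 (-0.37) were over the floor in the WT pool only. Of all 12 genes, 9 were below 0, with a median of -0.05.

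Without Des, Acta2 and Tagln, the 7 remaining stellate cell genes had a median of -0.25, and 6 of them were below 0. The 3 genes shared with muscle had a median of -0.39, and all 3 were below 0. This median depends on the probe set used for Des. With its second probe set averaged in, Des was the middle gene of the 3, at -0.22. Lum, Cygb and Pdgfrb, which are on none of the muscle lists, differed by -0.69, -0.56 and -0.52. The part of muscle tissue RNA in the values of these genes was not tested either.

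**Figure D4:**
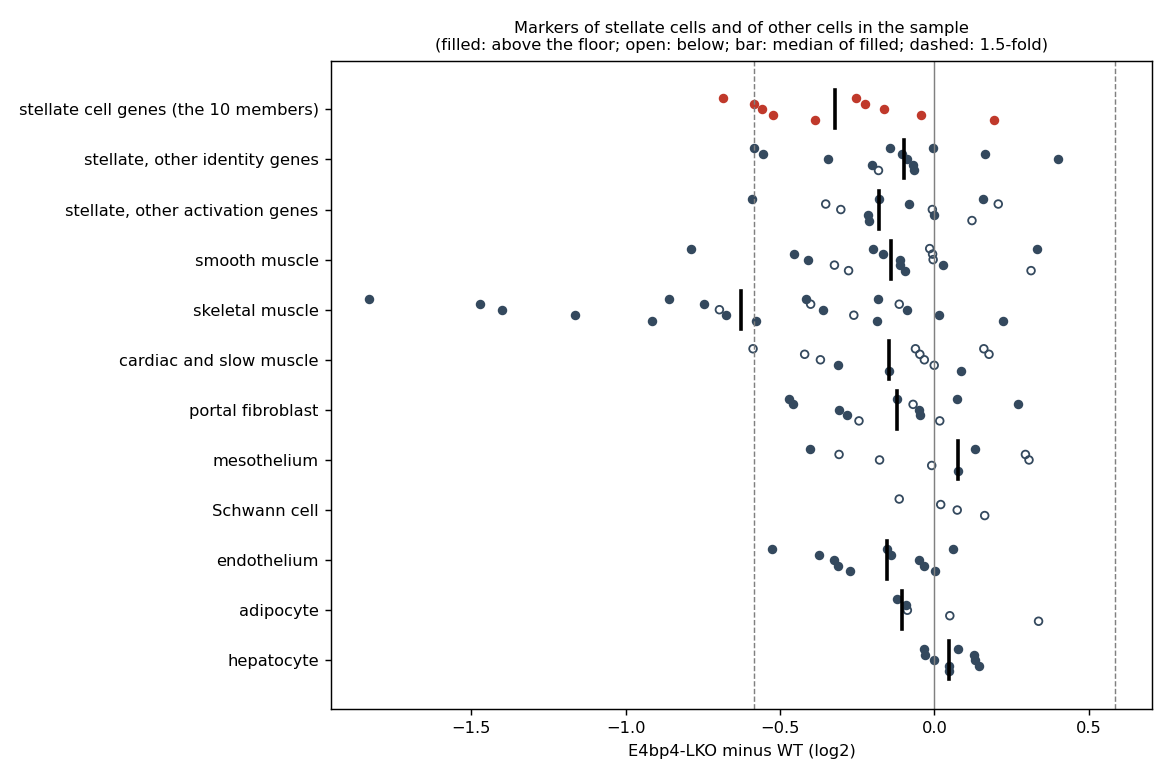
Differences (E4bp4-LKO minus WT, log2) of the 10 stellate cell genes (red) and of marker lists of other stellate cell genes and other cell types (blue), 1 point per gene, filled above the floor and open below, with a bar at the median of the filled points and 1.5-fold dashed. Skeletal muscle genes reach furthest to the left (median -0.63), the 10 stellate cell genes have a median of -0.32, and hepatocyte genes cluster at 0.05.

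Markers of other connective tissue and vessel cells were examined in the same way. Portal fibroblast markers had a median of -0.12 over 9 genes above the floor, 7 of them below 0 and none past 1.5-fold. Smoc2 and Fbln2, matrix protein genes, differed by -0.47 and -0.46, Mfap4, a microfibril gene, by -0.31 and Cd34 by -0.28. The defining markers Thy1, Fbln1 and Eln differed by 0.27, -0.12 and -0.05, and Gli1 was below the floor on both arrays. The summed intensity of this list was 361 on the E4bp4-LKO array and 394 on the WT array. Mesothelial markers had 3 of 8 genes above the floor (median 0.08). Upk3b and Upk1b, uroplakin genes, differed by 0.13 and 0.08 and Gpm6a by -0.40, while Msln, Wt1 and Lrrn4 were below the floor on both arrays.

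Endothelial markers were all above the floor, with a median of -0.15 and 9 of 11 below 0. Lyve1, a hyaluronan receptor gene, was at 8.26 on the E4bp4-LKO array and 8.78 on the WT array (-0.52). Vwf differed by -0.37, Oit3 by -0.32, Cdh5 by -0.31, Pecam1 by -0.27, Stab1 by -0.15 and Stab2 by -0.03. The summed endothelial intensity was 3024 on the E4bp4-LKO array and 3401 on the WT array. Hepatocyte markers differed by between -0.04 and 0.14 (median 0.05, 9 genes). Alb, the albumin gene, was at 12.77 on both arrays. The receptor gene Asgr1, the transcription factor gene Hnf4a and the fibrinogen gene Fgb were highest, at 0.14, 0.13 and 0.13. Apoa1, Apob and Ttr, which encode secreted plasma proteins, differed by 0.08, -0.03 and -0.04. Of the adipocyte markers, Adipoq, Lep and Plin1 were below the floor on both arrays, and the 2 above it, Retn and Fabp4, differed by -0.12 and -0.09. The part of a differing mixture of cells in the values of the 10 stellate cell genes was not tested.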

How the data were processed

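The authors deposited a log2 intensity for each probe set and array, and the submitters' processing notes name RMA with R 3.4.0. RMA corrects background, equalises the arrays by quantiles and summarises probes on the log2 scale, which compresses differences of dim genes. Per the labels' protocols, 400 ng of total RNA was labelled per array. The file held 41345 probe sets, of which 23521 have 1 gene symbol in the platform annotation, 1814 several and 16010 none. Those with 1 symbol were averaged per gene. The difference is E4bp4-LKO minus WT. A gene counts as called when it differs by at least 1.5-fold and its mean lies above the floor.

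With 2 arrays, 1 per genotype, no test was made, and the number of arrays limits the precision. Besides the 10 genes, 19 lists were described, of which 203 of all 217 entries (the 10 genes included) were measured, 4 of them matched by RefSeq gene ID. Genes were named if they were among the 10, past 1.5-fold, among the 4 largest absolute differences above the floor in a list, or among the first 5 markers of a cell type. Other genes named were chosen after their values were seen. The 10 genes and the lists were chosen with earlier results of these data known. The alternatives tried were the brightest probe set, 2 rescalings, other floors, a 2-fold threshold and leaving out genes shared with muscle. The calculation was tested on simulated data. Python 3.11.15, pandas 2.3.3 and statsmodels 0.14.6 were used.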

Additional observations from a re-analysis of the deposited data

How the results depend on the processing

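No paired analysis was possible because there is 1 array per genotype, and for the same reason no replicate could be left out. The median of the stellate cell genes lay between -0.32 and -0.24 under all alternatives run. It was taken over 5 genes with the floor at the 75th percentile and over 7 without Des, Acta2 and Tagln. With the floor at the 75th percentile, 5 of the 10 genes remained, namely Acta2, Reln, Dcn, Hgf and Cygb. Of these, 5 were below 0 and 0 were at least 1.5-fold lower. Lum, Des, Pdgfrb and Tagln fell out, and so did Ngfr, the only gene that was higher. At a 2-fold threshold 0 of the 10 genes were called. Subtracting the median of all genes or a trend on level left 1 gene called and 9 below 0, and moved no gene past 1.5-fold in or out. Averaging in the probe set annotated to Gm15179 and Des moved Des to -0.22 and the median of the 10 genes to -0.24, an alternative chosen after seeing the data. Of 31 recomputed differences of the 10 genes, 30 moved by less than the probe disagreement of 0.22, and the exception was that of Des. Of 86 recomputed list medians, 85 moved by less than this, the exception being skeletal muscle at -0.89 with 2 genes above the higher floor. No setting supplies an error between mice.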

Other observations

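In the lists used here, 3 genes whose mean lay below the floor of 4.20 had larger differences than any of the 10 stellate cell genes. They were singled out after their values were seen. Ntrk2, which encodes the neurotrophin receptor TrkB, was at 2.95 on the E4bp4-LKO array and 4.68 on the WT array (-1.73). Ecm2, a leucine-rich matrix protein gene, was at 2.97 on the E4bp4-LKO array and 4.15 on the WT array (-1.18). Pvalb, the parvalbumin gene of fast skeletal muscle, was at 3.78 on the E4bp4-LKO array and 4.48 on the WT array (-0.70), close to the -0.69 of Lum. At such levels the sizes of these differences are uncertain.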
